A study of Mus musculus with 6 samples.

Results

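MHC class I antigen presentation was followed in the mouse cortex after stroke through 9 genes, chosen by name and not by their values: H2-K1, H2-D1, H2-T23, H2-M3, B2m, Tap1, Tap2, Tapbp and Nlrc5. They are 9 of 15441 genes with a value in at least 1 library, and 8 of them, all but Nlrc5, were listed in every library. The libraries came from the whole ipsilateral cortex of male C57/BL6J mice aged 6 to 8 weeks at the operation. Age at sampling therefore goes together with the time after it. Stroke was induced by photothrombosis, in which the dye Rose Bengal is injected and the brain is illuminated so that vessels clot, and the cortex was taken 1, 3, 7, 14 or 28 days later. Control mice had the sham operation and were sampled at day 7 after it. RNA of 3 mice was pooled for each of the 6 libraries, so each group is 1 library, no difference has a replicate check and no p-value is given. The values are FPKM (fragments scaled to transcript length and library size), and the depth behind each library is unknown.

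MHC class I molecules show fragments of a cell's own proteins at its surface. A polymorphic heavy chain pairs with the light chain beta-2 microglobulin, encoded by B2m. Peptides cut by the proteasome are carried into the endoplasmic reticulum by the transporter TAP, made of Tap1 and Tap2, and tapasin (Tapbp) holds the empty heavy chain at TAP while it is loaded. CD8 T cells read the loaded molecule, and NK cells sense how much of it is present. Healthy neurons carry little class I, while microglia and endothelial cells carry more, and interferons raise the whole pathway. The transactivator NLRC5, itself interferon-inducible, acts at class I promoters through proteins bound to a conserved set of boxes, among them X2 and Y.

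The promoters are shown since the members that share these boxes can then be read beside their levels. Sequences are from RefSeq on GRCm38.p6, from upstream of the start site to just past it, and are written in the direction of the gene. An entry was at hand for 7 of the 9 genes, and Tap2 and Nlrc5 have no entry in the table. Capitals mark letters found on either strand of TGACG (X2 core), CCAAT (Y box), AANNGAAA (a core of interferon regulatory factor sites) and GGGNNTTCC (a core of NF-kB sites). These letters were settled after the members' promoters had been looked at. B2m (chr2:122147437-122147736, plus strand), H2-K1 (chr17:34000298-34000597, minus strand), H2-D1 (chr17:35262844-35263143, plus strand) and H2-M3 (chr17:37269984-37270283, plus strand) share an arrangement, while Tap1 (chr17:34187306-34187605, plus strand) and Tapbp (chr17:33919228-33919527, plus strand) are shown for contrast.
B2m: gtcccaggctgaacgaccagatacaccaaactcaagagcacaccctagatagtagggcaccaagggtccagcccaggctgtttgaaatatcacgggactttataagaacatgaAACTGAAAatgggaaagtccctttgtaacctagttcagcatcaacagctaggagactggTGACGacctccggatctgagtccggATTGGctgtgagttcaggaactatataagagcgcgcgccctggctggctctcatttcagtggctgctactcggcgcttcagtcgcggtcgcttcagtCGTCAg
H2-K1: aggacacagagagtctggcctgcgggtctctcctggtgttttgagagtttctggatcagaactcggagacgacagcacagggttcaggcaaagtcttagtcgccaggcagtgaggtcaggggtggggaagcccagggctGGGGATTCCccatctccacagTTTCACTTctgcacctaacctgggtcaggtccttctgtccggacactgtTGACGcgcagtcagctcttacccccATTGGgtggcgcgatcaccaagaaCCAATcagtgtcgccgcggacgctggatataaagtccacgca
H2-D1: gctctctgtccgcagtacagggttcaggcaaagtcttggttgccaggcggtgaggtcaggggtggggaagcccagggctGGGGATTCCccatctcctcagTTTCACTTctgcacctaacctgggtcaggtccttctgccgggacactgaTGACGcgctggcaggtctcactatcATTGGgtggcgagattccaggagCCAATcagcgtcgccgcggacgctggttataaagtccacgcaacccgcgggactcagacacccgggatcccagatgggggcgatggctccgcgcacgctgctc
H2-M3: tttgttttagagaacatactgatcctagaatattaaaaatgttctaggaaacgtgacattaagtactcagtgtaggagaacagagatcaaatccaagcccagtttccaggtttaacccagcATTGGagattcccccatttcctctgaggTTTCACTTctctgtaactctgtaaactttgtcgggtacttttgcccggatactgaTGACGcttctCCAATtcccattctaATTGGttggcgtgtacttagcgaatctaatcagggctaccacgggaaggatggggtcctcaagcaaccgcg
Tap1: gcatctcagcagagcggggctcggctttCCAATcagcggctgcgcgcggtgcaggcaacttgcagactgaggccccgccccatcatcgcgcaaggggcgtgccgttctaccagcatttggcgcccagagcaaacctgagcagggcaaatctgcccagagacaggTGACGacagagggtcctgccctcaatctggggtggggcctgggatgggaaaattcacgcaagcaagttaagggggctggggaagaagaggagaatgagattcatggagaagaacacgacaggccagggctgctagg
Tapbp: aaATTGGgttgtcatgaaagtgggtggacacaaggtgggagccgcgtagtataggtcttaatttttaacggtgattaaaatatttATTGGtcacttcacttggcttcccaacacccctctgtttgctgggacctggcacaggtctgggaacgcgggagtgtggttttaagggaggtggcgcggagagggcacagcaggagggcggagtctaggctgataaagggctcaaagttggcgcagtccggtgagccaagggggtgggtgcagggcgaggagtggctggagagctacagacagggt

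In 4 of the 7 promoters, those of H2-K1, H2-D1, H2-M3 and B2m, TGACG was followed by ATTGG, the reversed Y box, with 25 bases from the first letter of one to that of the other. This spacing was read from the B2m promoter, which therefore holds it by construction, and then searched on both strands: 31 of all 32851 promoters of this length held it, or 0.0944%. These came from 27 of 27025 gene symbols, with the 4 members themselves among them. In B2m the X2 core began at position -78 and the reversed Y box at -53, counted from 0 at the start site. H2-D1 had them at -101 and -76, H2-K1 at -41 and -16, and H2-M3 at -46 and -21. Tap1 held TGACG at -86 with no Y box at that distance, and the promoters of H2-T23 and Tapbp held no TGACG. Taken alone, the X2 core was in 5 of the 7 promoters and in 20.8% of all, and the Y box was in 7 of 7 and in 37.4% of all. The interferon regulatory factor core was in 5 of 7 (the heavy chains and B2m) and in 23.9% of all. H2-K1 and H2-D1 also held the NF-kB core, found in 5.82% of all promoters, at -111 and -171. A match of letters is a description and not evidence that a factor was bound.

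Each library was compared with control by the log2 ratio of (FPKM + 0.1) to (control FPKM + 0.1), where either library had 1 FPKM or more, and a ratio of 1 or more in size is called past the fold. Values are given in time order unless stated. Of the 9 genes, 8 were compared on days 1, 3, 7 and 14, and 7 on day 28. Past the fold upwards were 0 on day 1 post-stroke, 4 on day 3, 5 on day 7, 6 on day 14 and 1 on day 28. Among all genes compared, 5.11%, 8.54%, 8.53%, 8.97% and 3.68% were that much higher on these days. No member was past the fold downwards on any day, against 4.48%, 2.53%, 2.12%, 6.92% and 2.79% of all genes. For H2-M3, Tap1 and Nlrc5 a downward call was not possible. H2-M3 and Tap1 were under 1 FPKM in control, at 0.668 and 0.664, and Nlrc5 was not listed there. They could be compared only where the post-stroke level reached 1 FPKM. Over the 9 genes, with Nlrc5 at 0 where it was not listed, the median log2 ratios for the 5 days were 0.43, 1.12, 1.10, 1.52 and 0.33. Without Nlrc5 it was 0.40, 0.76, 1.38, 1.82 and 0.24, and over all genes compared it was 0.01, 0.03, 0.03, 0.10 and 0.03. The genes past the fold were the heavy chains, B2m and Tap1. All of these but H2-M3 were highest at day 14. At day 28 H2-K1, H2-D1, H2-T23 and B2m were inside the fold, and Tap1 was not compared, being under 1 FPKM in both libraries. Tap2 stayed within the fold throughout, and Tapbp depended on which end of the gene was read.

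**Figure D1:**
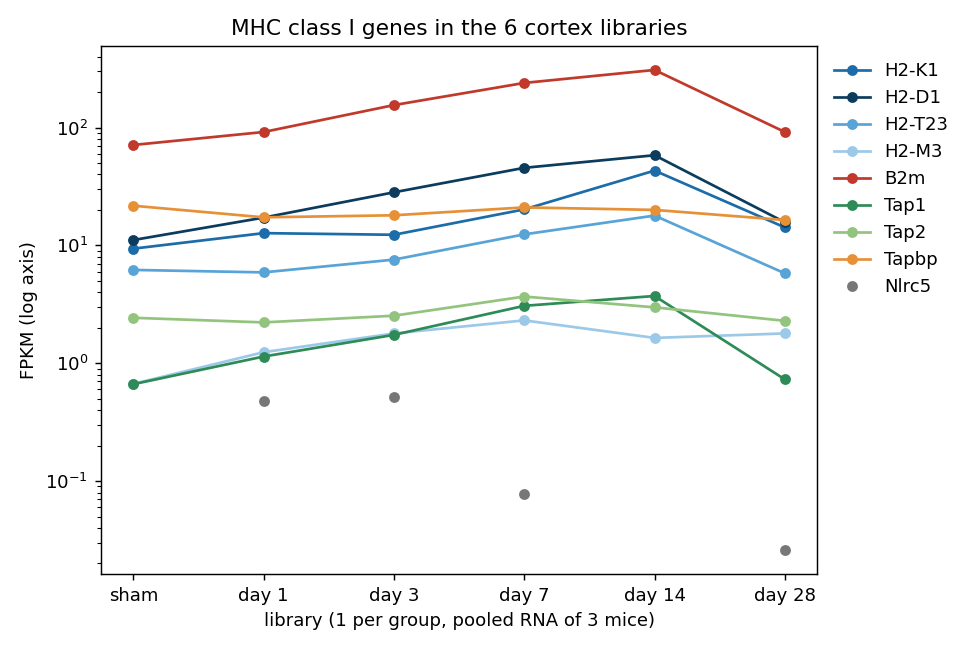
FPKM on a log axis (vertical) of the 9 class I genes in the 6 libraries (horizontal), each point being 1 library and the lines only joining points of a gene. B2m runs from 71.1 in control to 308 at day 14, H2-D1, H2-K1, H2-T23 and Tap1 are likewise highest at day 14, and Nlrc5 is listed in 4 libraries only.

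Among the heavy chains, H2-D1 (ENSMUSG00000073411, chromosome 17, 35262730 to 35267499, plus strand, GRCm38), a classical molecule that presents peptide to CD8 T cells, had the highest levels. Its FPKM was 11.1 in control and 17.2, 28.2, 45.5, 58.2 and 15.7 on days 1, 3, 7, 14 and 28. The log2 ratios were 0.62, 1.34, 2.02, 2.38 and 0.50, and the day 14 FPKM was 5.24-fold that of control. Levels were thus higher at each successive time to day 14 and 0.27-fold of the day 14 value at day 28.

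H2-K1 (ENSMUSG00000061232, chromosome 17, 33996017 to 34000347, minus strand), the other classical heavy chain of this strain, moved later. It stood at 9.38 FPKM in control, then at 12.7, 12.3, 20.2, 43.1 and 14.2. Its log2 ratios of 0.43 and 0.39 for days 1 and 3 were followed by 1.10, 2.19 and 0.60. H2-D1 had 1.18 times the FPKM of H2-K1 in control, 2.29 and 2.25 times at days 3 and 7, and 1.35 and 1.1 times at days 14 and 28, a ratio looked at after the levels had been seen. H2-D1 was therefore ahead of H2-K1 at days 3 and 7 and the pair was close again at day 14.

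The deposited values also separate the ends of H2-K1 transcripts. Most ended at 33996017 to 33996503, the distal end of the gene, with 8.86, 11.9, 9.87, 16, 41.7 and 13.3 FPKM from control to day 28. A nearer alternative end at 33996592 to 33996859 made up 0.375% of the summed ends in control and 0.399% at day 1, then 19.5% at day 3 and 17.2% at day 7, and 0.362% and 1.5% at days 14 and 28. In FPKM that end went from 0.0336 in control to 2.4 at day 3 and 3.35 at day 7, and was back at 0.152 at day 14. This was noticed after the data were seen. This end was listed in all 6 libraries, and the days on which its share was largest, 3 and 7, were those with the highest ratio of H2-D1 to H2-K1, although the H2-K1 levels used for that ratio count all ends or starts together.

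H2-T23 (ENSMUSG00000067212, chromosome 17, 36029773 to 36032855, minus strand) encodes Qa-1, a nonclassical molecule read by the NKG2 receptors of NK cells. Its FPKM was 6.19, 5.9, 7.57, 12.4, 17.9 and 5.79 from control to day 28, with log2 ratios of -0.07, 0.29, 0.99, 1.52 and -0.10. Day 7 was just inside the fold and becomes 1.13 when the transcript starts alone are summed. Transcripts that kept an intron made up 6.68% of its value in control, then 6.96%, 5.19%, 8.71%, 17.4% and 10.1%. On day 14 these included a form of 1.84 FPKM, keeping another intron, that was not listed in any other library. H2-T23 thus had a day 14 maximum like the classical chains, at a lower fold of 2.89.

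H2-M3 (ENSMUSG00000016206, chromosome 17, 37270220 to 37274484, plus strand), which presents formylated peptides such as those of bacteria and mitochondria, followed another course. Its FPKM was 0.668 in control, then 1.24, 1.79, 2.31, 1.64 and 1.79. The log2 ratios were 0.80, 1.30, 1.65, 1.18 and 1.30, so that its maximum fell at day 7 and it was the only member past the fold at day 28. At these low levels the calls are close to their limits: day 14 becomes 0.86 after a correction for transcript length, and day 28 becomes 0.95 when transcript ends are summed.

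B2m (ENSMUSG00000060802, chromosome 2, 122147686 to 122153083, plus strand), the light chain shared by all class I molecules, was the most abundant member in every library. Its FPKM was 71.1, 91.6, 155, 239, 308 and 91.6, with log2 ratios of 0.37, 1.12, 1.75, 2.12 and 0.37. The 4 heavy chains summed to 27.4, 37, 49.9, 80.4, 121 and 37.6 FPKM. B2m over that sum was 2.6 in control and between 2.44 (day 28) and 3.1 (day 3) after stroke, so the light chain and the summed heavy chains stayed in similar proportion while both were highest at day 14. H2-D1 and H2-K1 made up 74.9% of the heavy chain sum in control and 79.8% to 83.8% after stroke.

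Tap1 (ENSMUSG00000037321, chromosome 17, 34187553 to 34197225, plus strand) and Tap2 (ENSMUSG00000024339, chromosome 17, 34203527 to 34216321, plus strand) encode the partners that make up the peptide transporter, which works only as a pair. Tap1 had 0.664 FPKM in control, then 1.14, 1.74, 3.07, 3.72 and 0.729. Its log2 ratios were 0.70, 1.27, 2.05, 2.32 and 0.12, and the day 14 level was 5.59-fold that of control, the largest ratio of FPKM among the members, on low levels. Tap2 stood at 2.43, 2.22, 2.53, 3.68, 2.98 and 2.29 FPKM, with log2 ratios of -0.12, 0.05, 0.58, 0.29 and -0.08.

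The partners took different courses. Tap2 over Tap1 was 3.66 in control, then 1.95, 1.45, 1.2, 0.803 and 3.14. Only at day 14 was Tap1 the higher of the pair. The Tap1 levels rest on its starts and inner events, since its distal end is not among the events assigned to it. Its main start was not listed at day 28, where the value comes from an event at 34193128 to 34193316 that was 0.574 FPKM in control. By summed starts alone, Tap1 was at 0.127 FPKM at day 28, a log2 ratio of -1.75. By either value it was under 1 FPKM in both libraries and was not compared at day 28. Psmb9, which starts from the same stretch of chromosome on the other strand, had 0.537, 0.189, 1.17, 2.53, 3.75 and 0.527 FPKM. Like Tap1 it was highest at day 14, and it was near control at day 28, as Tap1 was by its inner event.

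**Figure D2:**
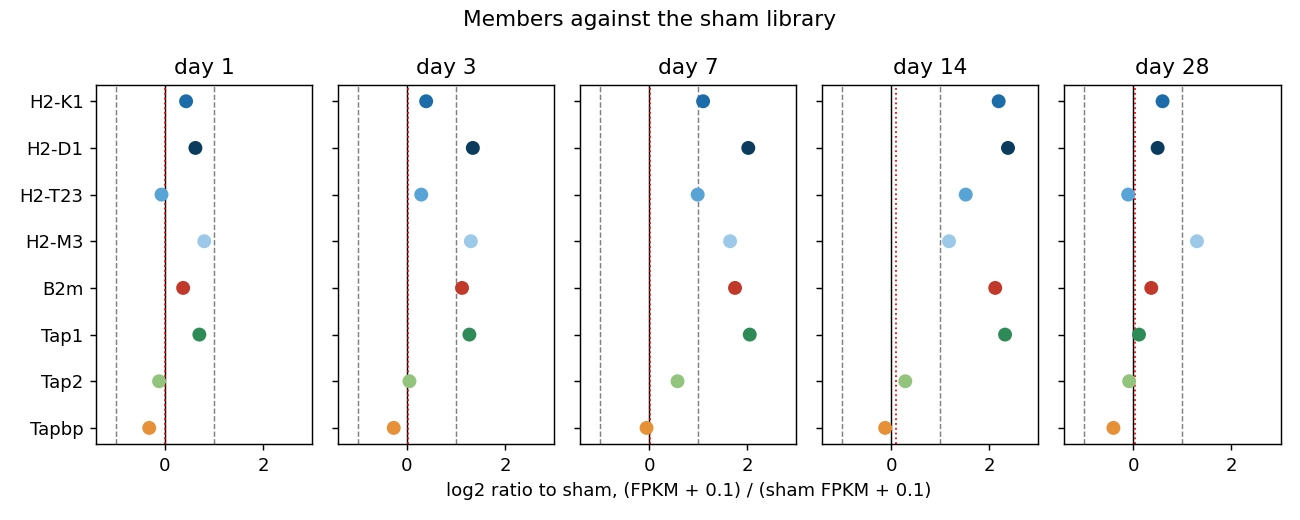
The log2 ratio to control (horizontal) of the 8 genes listed in all libraries, with 1 panel per day, dashed lines at 1 in size and a red dotted line at the median of all genes compared. B2m, H2-D1, H2-M3 and Tap1 lie beyond the dashed line at days 3, 7 and 14. H2-K1 joins them at day 7 and H2-T23 at day 14, and H2-M3 alone is beyond it at day 28. Tap1 at day 28 was under 1 FPKM in both libraries and was not compared.

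Tapbp (ENSMUSG00000024308, chromosome 17, 33915899 to 33929292, plus strand) was at 21.7, 17.3, 18, 21, 20 and 16.4 FPKM by the rule used for all genes, which takes the largest of summed starts, summed ends and any single event. The log2 ratios were -0.32, -0.27, -0.05, -0.12 and -0.40, and the gene looked flat. These ratios set unlike events side by side: the control value is a sum of starts, while those of days 3 and 14 are the end of the gene. The transcript end at 33928140 to 33929288 alone had 7.91 FPKM in control, then 10.1, 18, 17.2, 20 and 9.26. Its log2 ratios were 0.35, 1.17, 1.11, 1.33 and 0.22, or 2.53-fold at day 14.

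Among its starts, the one at 33916171 to 33916273 lies within the span of another gene on the same strand, Zbtb22, which itself was listed in no library. That start held 12.4 FPKM in control and 10.7, 10.2, 10.9 and 9.9 on days 1, 7, 14 and 28, and was not listed on day 3. The start at 33919332 to 33919724, which holds the RefSeq start site, had 9.26, 5.96, 10.6, 10, 4.49 and 6.3 FPKM and followed neither of the others. With events inside the spans of neighbouring genes left out, a choice made after these values were seen, Tapbp was at 9.34, 10.1, 18, 17.2, 20 and 9.26 FPKM, and its log2 ratios were 0.11, 0.94, 0.87, 1.09 and -0.01. Here too unlike events stand side by side: the control value is a sum of starts, while the later values are the end of the gene. Whether tapasin transcripts moved with the heavy chains thus depends on which events are counted.

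**Figure D3:**
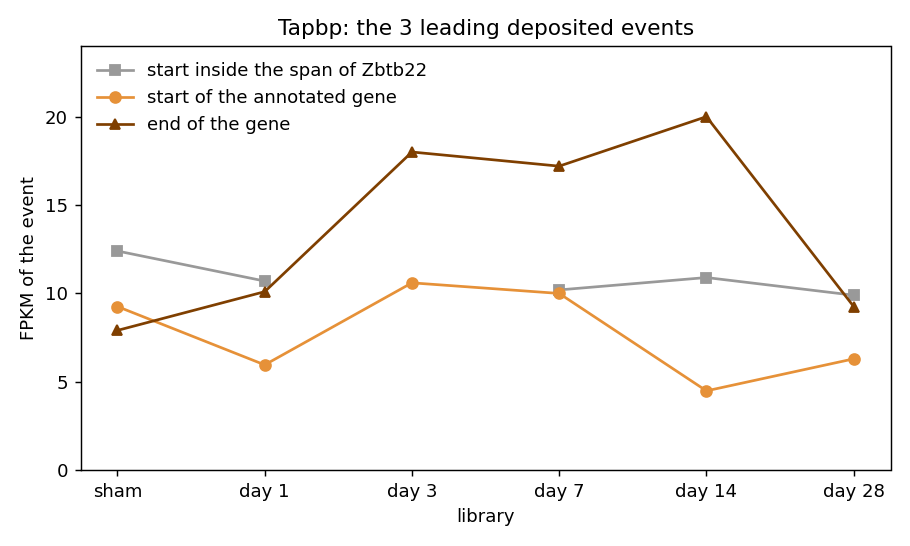
FPKM (vertical) of 3 deposited events of Tapbp in the 6 libraries (horizontal). The end of the gene is at 18, 17.2 and 20 at days 3, 7 and 14 against 7.91 in control, while the start inside the span of Zbtb22 stays between 9.9 and 12.4 where it is listed and the start of the annotated gene is lowest at day 14.

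Nlrc5 (ENSMUSG00000074151, chromosome 8, 94434356 to 94527272, plus strand), the class I transactivator, could not be followed. It was not listed in control or at day 14, and had 0.477, 0.516, 0.0776 and 0.0259 FPKM on days 1, 3, 7 and 28. Those values belong to only 2 events at the far end of the gene, a start at 94525067 to 94525503 and an end at 94525979 to 94527272, so they measure short transcripts and not the full gene. It stayed under 1 FPKM and was not counted past the fold on any day, and no ratio of its own is given. It enters only the medians over 9 genes, with the libraries where it was not listed at 0, and the day 28 median of 0.33 is its own value there.

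At day 14, the log2 ratios of H2-D1 and Tap1 were each above those of 97.5% of all genes compared, H2-K1 above 97.2%, B2m above 97.1%, H2-T23 above 95.4% and H2-M3 above 93%. Tap2 stood above 64.6%. Tapbp was above 34.7% by the rule, but above 91.7% by its end event, among genes compared by summed ends. It was above 92.1% with events inside neighbouring genes left out for all genes, where its end still stands beside a sum of starts in control. By summed starts the log2 ratio of Tapbp was -0.49, and its place among all genes was not worked out. At this day, log2 ratios across all genes were lower for longer transcripts (Spearman's rho -0.413, a description across genes, which are not independent), and B2m has the shortest of the members' longest transcripts, at 860 bases. After each library was corrected for that trend, the day 14 log2 ratios were 1.87 for H2-K1, 2.11 for H2-D1, 1.34 for H2-T23, 1.70 for B2m and 2.28 for Tap1. Of the 6 genes higher at day 14, only H2-M3 then fell inside the fold.

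**Figure D4:**
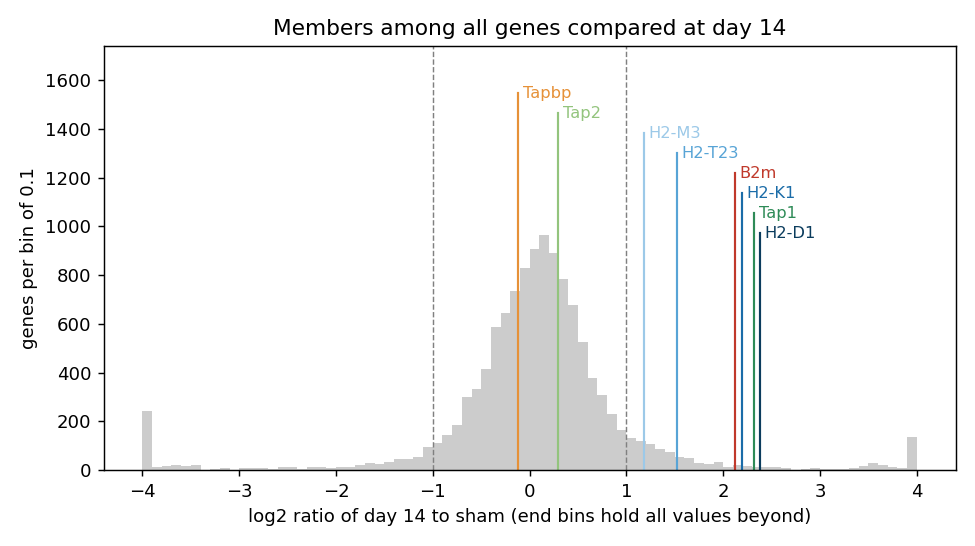
Number of genes (vertical, bins of 0.1) by log2 ratio of day 14 to control (horizontal), with the 8 members compared as labelled lines whose heights carry no value and dashed lines at 1 in size. Tap2 and, by the rule used for all genes, Tapbp lie within the bulk, and the other 6 lie beyond the dashed line, from H2-M3 at 1.18 to H2-D1 at 2.38. Tapbp would lie at 1.33 by its end event, at -0.49 by its summed starts and at 1.09 without events inside neighbouring genes, where its control value is still a sum of starts.

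For 5 members the step from day 14 to day 28 was larger than any earlier step between successive times. Tap1 at day 28 was 0.196-fold of its day 14 FPKM, H2-D1 0.27-fold, B2m 0.297-fold, H2-T23 0.323-fold and H2-K1 0.331-fold. H2-M3 was at 1.09-fold over the same step and Tap2 at 0.766-fold. At day 28, H2-K1 and H2-D1 had log2 ratios to control of 0.60 and 0.50, and Tap1, Tap2 and H2-T23 of 0.12, -0.08 and -0.10.

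Other class I heavy chains, most of them nonclassical, were followed as a list of 13 genes, of which 8 had a value in some library. Only 3 of these could be compared on days 1, 3, 7 and 28, and 5 on day 14. On day 14, 4 were past the fold upwards, on days 1, 3 and 7 it was 1, H2-Q4, and on day 28 it was 0. Of the 4, H2-Q6 and H2-Q7 were compared on day 14 only, since they reached 1 FPKM in that library alone. Part of the higher count thus comes from the filter. List medians over the genes with a value were 0.43, 0.08, 0.77, 0.83 and 0.09 in time order. Of all genes compared, 5.11%, 8.54%, 8.53%, 8.97% and 3.68% were that much higher in time order. H2-Q4 had 1.04, 2.35, 2.25, 5.01, 5.16 and 1.09 FPKM from control to day 28, and reached log2 ratios of 2.16 and 2.20 at days 7 and 14. H2-T10, a ligand of some gamma delta T cells, went from 4.77 in control to 11.3 at day 14, and H2-Q7, not listed in control, was at 1.76 at day 14. H2-T24 went the other way, with 2.06 FPKM in control and 0.838 and 0.813 at days 1 and 3, log2 ratios of -1.20 and -1.24. Heavy chain genes are similar in sequence, and how the authors' assembly divided reads among them is not given in the sources used here. Of windows of 150 bases, the read length, 1.79% of the H2-D1 transcript were also found in H2-Q1 and 0.831% of the H2-T23 transcript in Gm7030, while those of the other members were in no other gene's transcripts.

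Class I-like genes use the same fold for other tasks, and 4 of the 6 on the list had a value. Mr1, which presents vitamin metabolites to MAIT cells, was at 1.19 FPKM in control and 3.43 at day 7 (log2 ratio 1.45). Fcgrt, the neonatal Fc receptor, was at 6.35 in control and 14.2 at day 14 (1.15), and Hfe, a regulator of iron uptake, at 1.70 and 3.54 (1.01). After the correction for transcript length these day 14 ratios were 0.84 and 0.99, inside the fold. In time order, 0, 1, 3, 2 and 0 genes of the list were past the fold upwards, against 5.11%, 8.54%, 8.53%, 8.97% and 3.68% of all genes compared. The list medians were 0.01, 0.56, 1.30, 0.95 and 0.22. All 3 of these products pair with B2m.

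Peptide supply and loading was followed with 11 genes, all listed, and its median log2 ratio stayed between -0.12 (day 1) and 0.50 (day 7). Psmb8 and Psmb9, catalytic subunits of the immunoproteasome, were past the fold upwards through day 14, the former from day 3 and the latter from day 7. Psmb8 had 1.39, 2.1, 4.47, 6.87, 7.34 and 1.57 FPKM, with log2 ratios of 0.56, 1.62, 2.22, 2.32 and 0.16. Psmb9 reached 2.04 at day 7 and 2.59 at day 14. Psmb10, the third such subunit, was at 19.3 in control and 16.1 to 21 after stroke. The constitutive subunits Psmb6 and Psmb7, the only 2 of 3 with a value, had log2 ratios of at most 0.64 and were never past the fold. Of all genes compared, 3.68% (day 28) to 8.97% (day 14) were past it upwards, and for so few genes none is near that share.

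Psme1 and Psme2, which form the PA28 activator of the proteasome, were past the fold at day 14, with log2 ratios of 1.32 and 1.42, and Psme2 also at day 28, with 1.32. The chaperones of the loading complex, Calr, Canx and Pdia3, had log2 ratios from -0.32 to 0.57, and Tapbpl, a tapasin relative, from -0.13 to 0.67. Lnpep, an aminopeptidase of the endosomal route, was at 5.99 FPKM in control and 0.396 at day 14 but 5.76 at day 28. It was the only gene of the list past the fold downwards. Of all genes compared at day 14, 6.92% were that much lower, and 1 gene of this list is near that share. At day 14, 4 of the 5 interferon-inducible proteasome genes (all but Psmb10) and 0 of the 3 chaperones were past the fold upwards, against 8.97% of all genes compared. For so few chaperones, 0 past the fold is near that share.

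Interferon signalling and the factors of class I promoters were followed with 24 genes, of which 20 had a value. In time order, 1, 0, 3, 5 and 1 were past the fold upwards, against 5.11%, 8.54%, 8.53%, 8.97% and 3.68% of all genes compared. The medians were 0.19, 0.43, 0.36, 0.34 and 0.06. Irf1, a factor that binds class I promoters, was past the fold at day 1 with a log2 ratio of 1.08, or 0.96 and inside the fold after the correction for length, and again at days 7 and 14 with 1.16 and 1.45. Irf7, a driver of type I interferon, went from 0.0669 FPKM in control to 3.1 at day 7 and 5.14 at day 14 and was still at 1.18 at day 28. Stat2, a messenger of the type I interferon receptor, was past the fold at days 7 and 14 with 1.24 and 1.06, and Tyk2 and Nfkb1 at day 14 with 1.63 and 1.09.

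The receptor chains Ifngr1, Ifngr2 and Ifnar1 had log2 ratios from -0.17 to 0.90, below the fold on every day. Rfx5, Rfxap and Rfxank, which form the complex on the X1 box, ranged from -0.67 to 0.71, and Nfya, Nfyb and Nfyc, which bind the Y box, from -0.97 to 0.63. Creb1, which binds the X2 box, was past the fold downwards at days 1 and 14, with 2.64 and 0.804 FPKM against 5.69 in control. Its day 1 log2 ratio of -1.08 became -0.88 after the correction for length. Of all genes compared, 4.48% and 6.92% were past the fold downwards on these days, and 1 gene of the list is near that share. None of the factors of the X and Y boxes was past the fold upwards, against 3.68% (day 28) to 8.97% (day 14) of all genes compared. For so few genes, none past the fold is near that share. Ifng, Irf8, Ifnar2 and Ciita were not listed in any library.

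**Figure D5:**
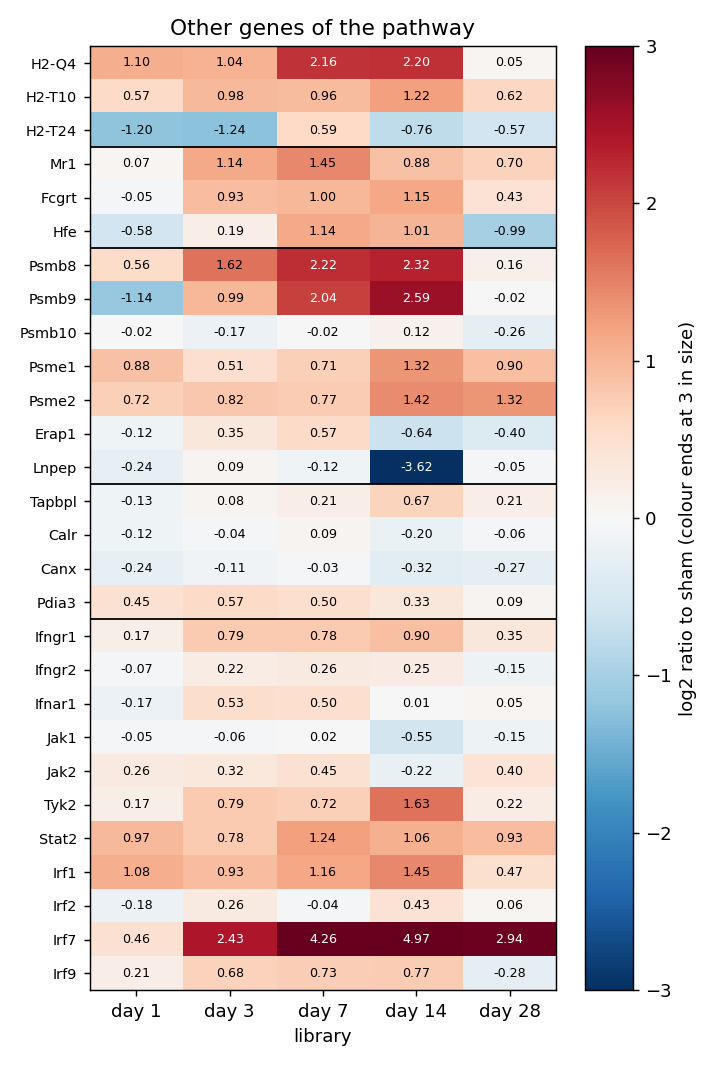
The log2 ratio to control (colour and printed number) of other genes of the pathway (rows) on each day (columns), for genes listed in all libraries and at 1 FPKM or more in some library, with lines between other heavy chains, class I-like genes, peptide supply, loading, and interferon receptors, kinases, Stat2 and Irf genes. Psmb8, Psmb9, H2-Q4 and Irf7 are high at days 7 and 14, and Calr and Canx are near 0 throughout. The values of Psmb9 at days 1 and 28 and of Irf7 at days 1 and 3 are each between 2 levels under 1 FPKM, and were not compared.

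Receptors and effectors of cells that read class I could not be compared. Of the list's 15 genes, 7 had a value in some library, none of them reaching 1 FPKM, and 8 were not listed. On day 14, Nkg7, a granule protein of NK and CD8 T cells, was at 0.994 FPKM, Cd3d at 0.479, Gzma at 0.353 and Cd3e at 0.131. Trac was lower on day 14 than in control, at 0.387 against 0.644, and Klrd1 was highest on day 3, at 0.167 against 0.0355 on day 14. Cd247 was listed on day 1 only, at 0.0831, and Cd8a and Cd8b1 were not listed in any library. A gene that is not listed cannot be read as silent, since the reference genes Gapdh and Rpl13a were not listed either. Among 4 reference genes with a value, Actb and Hprt stayed within the fold, Tbp was higher at day 28 (log2 ratio 1.35), and Ppia had 498, 601, 62.2, 121, 713 and 131 FPKM, past the fold downwards at days 3, 7 and 28.

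Cell type markers also differed between the libraries. Neuron markers, all 5 listed throughout, summed to 1462 FPKM in control and to 1359, 1041, 1076, 979 and 1258 after stroke. Microglia and macrophage markers, of which 5 or 6 of 7 were listed per library, summed to 51.6, 41.1, 104, 110, 91.5 and 49.9 FPKM, with Cx3cr1 or Tmem119 not listed in every case. That sum was highest at day 7, and Cd68, a lysosomal protein of phagocytes, was at 4.32 in control, 29.8 at day 7 and 19 at day 14. P2ry12, a marker of resting microglia, did not share that course, with 18 FPKM in control, then 7.01, 21.7, 17.7, 13.3 and 15.6. Csf1r was, like Cd68, highest at day 7, at 52.3 against 23.9 in control. Aif1 and Ptprc were highest at day 14, at 15.2 and 3.4 against 4.43 and 0.836 in control. The MHC class II genes H2-Aa, H2-Ab1 and H2-Eb1, which mark professional antigen-presenting cells, summed to 2.69, 4.7, 15.8, 15.9, 26.8 and 5.75 FPKM and had their maximum at day 14, as H2-K1, H2-D1 and B2m did. Astrocyte markers summed to 281, 509, 949, 641, 551 and 339 FPKM. Most of that difference was Gfap, and the other 3 markers summed to 196, 179, 251, 218, 171 and 189.

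Markers of T and NK cells summed to 1.03 FPKM or less in every library, with Cd3g, Cd8a and Cd8b1 not listed in any, and those of B cells to 1.2 or less. Neutrophil markers summed to 16.3 FPKM at day 1 and 9.16 at day 14, against 0.0729 in control, with Ly6g and Mpo not listed. Oligodendrocyte markers lay between 1418 and 2018, endothelial markers between 11 and 28.5 and choroid plexus markers between 181 and 559 FPKM. In a whole-tissue library more cells of a type and more RNA per cell cannot be told apart. The part of these shifts in the class I levels was not tested.

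The course of the members was compared with that of other genes by Pearson's r over the 6 libraries with the mean centred log2 profile of the 8 listed members, among 1925 genes with at least 5 FPKM in some library and a log2 range of at least 1. The points share the control library and library effects, and r is a description. B2m and H2-D1 were closest to the mean of the other members, with r of 0.994 and 0.992, then Tap1 with 0.967, H2-T23 with 0.943, H2-K1 with 0.856 and Tap2 with 0.809. H2-M3 had 0.610. Tapbp had 0.276 by the rule, 0.919 by its end event and 0.903 without events inside neighbouring genes, the last with a sum of starts in control. Outside the members, the most alike were Ube2l6 (0.995), which conjugates the ubiquitin-like ISG15, Bst2 (0.989), the antiviral tetherin, Ifit3 (0.988), Lag3 (0.986), a CD4-related receptor, and Usp18 (0.985), which removes ISG15. Fat1 (0.982), Tlk2 (0.974), Irgm2 (0.972), Lum (0.972) and Psmb8 (0.966) followed. Bst2 had 3.1 FPKM in control and 21, 24.7 and 4.06 on days 7, 14 and 28.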

How the data were processed

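RNA was extracted from the whole ipsilateral cortex and pooled from 3 mice per group. The strand-specific libraries were made from poly(A) RNA and read as pairs of 150 bases, with a stated mean of 33.6 M reads per sample. The submitters' processing notes name Trimmomatic 0.30, HISAT2 2.0.1, HTSeq 0.6.1 and build mm10; the assembler is not given in the sources used here. The FPKM values the authors deposited belong to events (starts, ends and splice choices of transcripts), and events at 0 are left out, so no interval or floor can be given. Events without an Ensembl gene identifier, at 291 to 313 loci per library, did not enter the gene values.

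Repeated rows of an event were used once. A gene's value was the largest of summed starts, summed ends and any single event. This construction was taken over from an earlier analysis of these files, in which 4 were compared with the authors' published results before it was chosen. The design assumed 1 FPKM per gene. The log2 ratio used a pseudocount of 0.1, a minimum of 1 FPKM in 1 of the 2 libraries and a threshold of 1. Genes not listed counted as 0 in counts and medians. All 9 members and each gene of the lists could be named; 1 gene of the interferon list is not reported here. Members, lists and comparisons were chosen with earlier results of these data known. Coordinates and lengths are from GENCODE M21 (GRCm38), which matched 15411 of 15441 identifiers. Scripts were tested on simulated data (with pandas 2.3.3, numpy 2.4.6, matplotlib 3.10.9 and scipy 1.17.1 under Python 3.11.15). Alternatives covered the pseudocount, filter, threshold, gene value, scaling and length.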

Additional observations from a re-analysis of the deposited data

How the results depend on the processing

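At day 14, 4 to 7 of the 9 genes were past the fold under every alternative tried, against 6 as reported, and the median log2 ratio lay between 1.33 and 1.66. The other days moved more, by over 1.5 times for the counts that follow. At day 1, 1 gene (Nlrc5) was past the fold with no filter on low values and 3 with a threshold of 0.5. At day 3, 2 were with a pseudocount of 1, 2 with a minimum of 5 FPKM and 0 with a threshold of 2. At day 7, 3 were with a minimum of 5 FPKM and 2 with a threshold of 2, and the median was 1.75 with a pseudocount of 0.01. At day 28 the count was 0 with a pseudocount of 1, with a minimum of 5 FPKM, with a threshold of 2 and with summed ends, and 2 with a threshold of 0.5. The filter and the threshold do not enter the medians, so these have no value there. Scaling each library to the same median ratio and using only events inside a gene's span moved no count or median past 1.5 times, and no median changed sign. Tapbp is the member that depends most on the gene value, and Tap1 has no usable end sum. Leaving out a library of a group was not possible with 1 library per group. No paired analysis was possible because each group is 1 library. FPKM without counts leave the counting error of low members, H2-M3, Tap1 and Nlrc5, unknown.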
